A study of Zea mays with 15 samples.

Results

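The genes described here stand at the receiving end of cytokinin signalling in the maize internode, and 1 of them removes the hormone. They are the receptor kinases HK1 and hk2, the type-B response regulators RR8, RR9 and RR10, and the cytokinin oxidase ckx1. They were taken by symbol or synonym from the annotation of the array, and each was measured by 1 probe set, which gave 6 probe sets among the 17621 on the array other than controls and 6 genes among the 1108 that could be named. The rule used names and no measured value, but the members were chosen with earlier results of these data known. In RefSeq's synonyms the gene models are GRMZM2G151223 (HK1), GRMZM2G471529 (hk2), GRMZM2G099797 (RR8), GRMZM2G060485 (RR9), GRMZM2G126834 (RR10) and GRMZM2G146644 (ckx1).

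Cytokinins promote cell division in plant meristems. Their receptors are membrane histidine kinases that pass a phosphate through histidine phosphotransfer proteins to response regulators in the nucleus. Type-B regulators are transcription factors that switch on the target genes of the hormone, among them the genes of the type-A regulators, which dampen the signal. Cytokinin oxidases degrade the hormone by cleaving its side chain.

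RNA came from the meristem of internode 7 of greenhouse maize. Plants at the jointing stage with 8 leaves were sprayed with 600 mg/L ethephon, which releases ethylene in the plant, or with water, 100 seedlings each. The 5 groups were untreated plants at 0 h and plants at 24 and 48 h after water or after ethephon, with 3 arrays each, and every RNA pooled 3 seedlings. The labels give neither a cultivar nor a genotype, and all plants belonged to 1 greenhouse experiment.

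Array quality was not even across the groups. The 3'/5' index, the mean log2 excess of 3' over 5' signal for 5 control transcripts, ran from 0.783 to 2.19 in untreated arrays, from 2.52 to 3.07 with water and 2.83 to 3.15 with ethephon at 24 h, and from 1.66 to 2.35 with water and 2.66 to 2.79 with ethephon at 48 h. The lowest index belonged to the second untreated array. The meristem marker kn1, a homeobox gene of undifferentiated stem tissue, read 2524 to 4257 over the 15 arrays, and lg3, the other meristem marker of the list, 181 to 1984. Of 6 dividing-cell markers 3 were kept, and the list's summed signal overlapped between all groups, from 3095 to 6925. Its member cycD2, a D-type cyclin gene, was separated between ethephon and water at both times. Its water arrays read 1559 to 1829 at 24 h and 1782 to 1902 at 48 h. Its ethephon arrays read 2660 to 2945 and then 2044 to 2486, and untreated ones 2480 to 3168. All ethephon arrays lay higher for 7.05% of kept probe sets at 24 h and 5.14% at 48 h. The other kept markers of this list, mcm6 and pcna2, overlapped between ethephon and water at both times. The dim marker cyc1 was separated the other way at 24 h, reading 49.2 to 140 on water arrays and 19.1 to 42.8 on ethephon arrays. Of 6 green-tissue markers 4 were kept, among them the Rubisco small subunit gene ssu1 at 4198 to 11442, which made up most of the sum, while pep1 (56.2 to 120) and me1 (64.4 to 174) lay below the filter on all arrays. The summed signal of the 6 was 7832 to 14890 in untreated arrays, 7420 to 8566 with water and 6144 to 11508 with ethephon at 24 h, and 7164 to 12917 with water and 6960 to 11142 with ethephon at 48 h. None of these markers was at 0, and their part in the differences given here was not tested. In tissue of this kind fewer cells of a type and less RNA per cell cannot be told apart.

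All 5 receptor and type-B regulator genes had a mean signal above the filter level, and none passed the test in any comparison, while ckx1 stayed dim on every array. Signals are linear MAS5 values, and a probe set was tested when its mean over the 15 arrays reached 218.3, the 40th percentile. HK1, hk2, RR8, RR9 and RR10 were kept, with means of 399, 604, 557, 480 and 598. The members differed in how much they varied: the highest of the 15 values was 3.34 times the lowest for hk2, 2.98 times for HK1 and 2.82 times for RR9, but 1.57 times for RR8 and 1.55 times for RR10. The standard deviation within groups was 0.141 on the log2 scale for RR10 and 0.189 for RR8, against a median of 0.329 over all kept probe sets, and 0.443 for hk2.

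**Figure D1:**
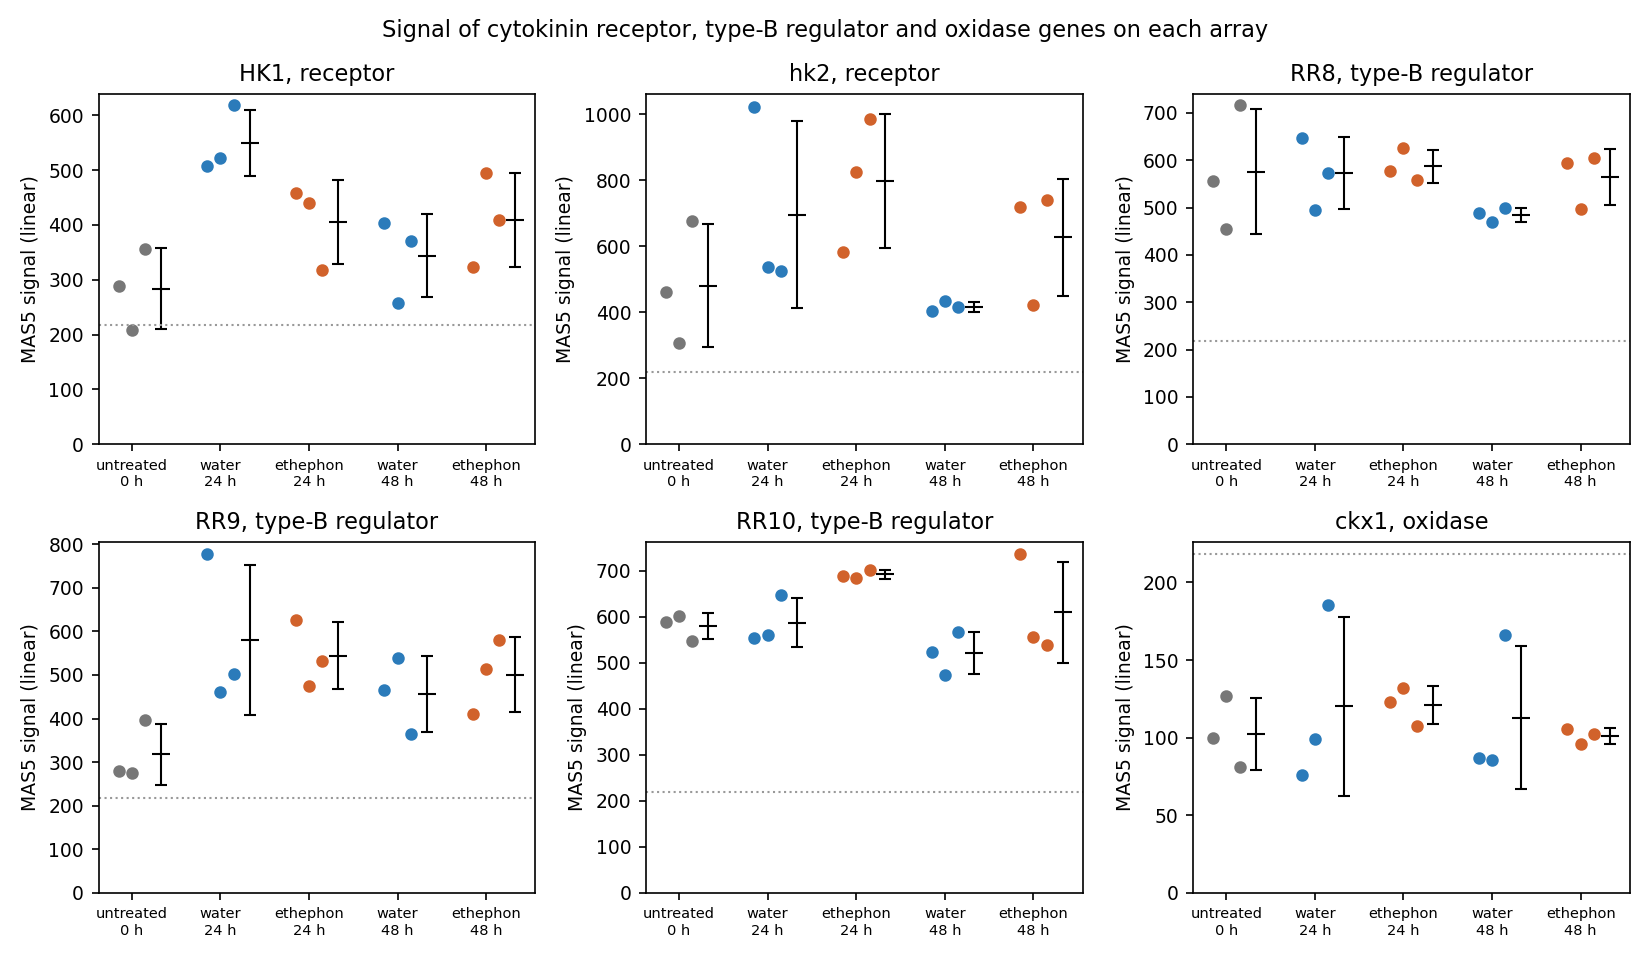
Linear MAS5 signal (vertical axis) of each of the 6 genes on the 15 arrays, by group; points are arrays in the order of their replicate numbers, the bar is the mean with its SD (n = 3), and the dotted line is the filter level of 218.3. HK1 was highest on the 3 water arrays of 24 h, RR9 was lowest on average at 0 h, and every ckx1 value lay under the dotted line.

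HK1 had its highest signals 24 h after water. The water arrays of 24 h read 507, 522 and 619, and those with ethephon at the same time 459, 441 and 318. Untreated arrays read 288, 208 and 356, water arrays of 48 h 404, 258 and 370, and ethephon arrays of 48 h 323, 496 and 410. The 3 water arrays of 24 h were thus the 3 highest of all 15, a pattern noticed after the values were seen. A group holding the 3 highest or the 3 lowest values, whichever group it was, occurred in 1 of the 5 tested members and in 6.71% of the kept probe sets, and nothing is read from it. The order of group means was water 24 h (549 ± 60.9, SD, n = 3), ethephon 48 h (409 ± 86.1), ethephon 24 h (406 ± 76.3), water 48 h (344 ± 76.2) and untreated (284 ± 74.1). In that order the first step alone was larger than the combined SD of its neighbours, and the arrays of every other pair of neighbours overlapped.

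The other receptor gene, hk2, spread more within its groups. It read 1023, 539 and 526 with water and 584, 824 and 987 with ethephon at 24 h. At 48 h it read 403, 433 and 415 with water and 719, 423 and 739 with ethephon, and the untreated arrays read 461, 306 and 677. A single water array of 24 h therefore gave the highest value of all, and the water arrays of 48 h lay closest together. Group means ran from 798 ± 203 with ethephon at 24 h through 696 ± 283 (water 24 h), 627 ± 177 (ethephon 48 h) and 481 ± 186 (untreated) to 417 ± 15.4 with water at 48 h, and no neighbours in this order differed beyond their spread.

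Among the type-B regulators RR9 was lowest before spraying. Its untreated arrays read 280, 276 and 398. With water it read 777, 461 and 502 at 24 h and 465, 540 and 364 at 48 h, and with ethephon 627, 474 and 532 at 24 h and 409, 514 and 580 at 48 h. Each ethephon array and each water array of 24 h lay above all untreated arrays, and the third water array of 48 h lay among them. The group means ran from 580 ± 172 (water 24 h) through 544 ± 77.2 (ethephon 24 h), 501 ± 86.0 (ethephon 48 h) and 456 ± 88.1 (water 48 h) to 318 ± 69.3 untreated, and the last step alone exceeded the combined SD, although its arrays overlapped.

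RR8 and RR10 stayed within narrow limits. RR8 read 556, 455 and 716 untreated, 648, 496 and 573 with water and 578, 625 and 558 with ethephon at 24 h, and 488, 469 and 498 with water and 593, 496 and 605 with ethephon at 48 h. Its group means lay between 565 and 587 except with water at 48 h, where the mean was 485 ± 14.8. In their order (ethephon 24 h, untreated, water 24 h, ethephon 48 h, water 48 h) the last step alone was larger than the combined SD, and its arrays overlapped. RR10 read 689, 685 and 703 with ethephon and 554, 561 and 648 with water at 24 h, 737, 557 and 538 with ethephon and 523, 474 and 567 with water at 48 h, and 589, 602 and 549 untreated. The ethephon arrays of 24 h were close to each other (693 ± 9.11) and were exceeded by 1 array, the first with ethephon at 48 h. Of the neighbouring means of RR10 (693, 611, 588, 580 and 521) the untreated and the water 48 h groups alone differed by more than their combined SD, and their arrays overlapped.

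The oxidase gene ckx1 read 76.0 to 186 and reached the filter level on 0 of 15 arrays. Its group means lay between 101 ± 5.01 (ethephon 48 h) and 121 ± 12.2 (ethephon 24 h). The ethephon arrays of 24 h lay above those of 48 h, and the arrays of every other pair of groups overlapped. That pair of groups was not fitted, and its share of separated probe sets was not counted, so nothing is read from the separation. The widest spread, 120 ± 57.8 with water at 24 h, came from the third array at 186, beside 76.0 and 99.2. Because ckx1 did not reach the filter, its differences are given from the fit without one.

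Ethephon against water was the comparison of the study's design, and at 24 h it gave mixed signs. HK1 lay lower with ethephon (log2 difference -0.45 ± 0.26, limma standard error, 95% interval -1.02 to 0.12, adjusted p = 0.572), and all 3 ethephon arrays lay below all 3 water arrays. RR10 lay higher (0.24 ± 0.15, -0.09 to 0.57, adjusted p = 0.577), with all 3 ethephon arrays above all 3 water arrays. Such a complete separation was seen for 10.8% of the kept probe sets in the lower and 7.05% in the higher direction, and a count of 1 among 5 members in each direction is too small to set against those shares. The other 3 overlapped: hk2 at 0.24 ± 0.34 (-0.50 to 0.98), RR8 at 0.04 ± 0.18 (-0.35 to 0.44) and RR9 at -0.06 ± 0.25 (-0.60 to 0.48). In folds, the intervals leave room for 0.786 to 1.35 in RR8, 0.937 to 1.49 in RR10 and 0.705 to 1.97 in hk2, and a missed threshold therefore does not show equal levels. The unfiltered value of ckx1 was 0.11 ± 0.33.

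Of the 5 members 0 were called by limma at 24 h, and so were 0% of the 10573 kept probe sets. At an unadjusted p under 0.05 there were 0 members and 951 probe sets. The median difference of the 5 members was 0.04 and that of all kept probe sets -0.03.

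At 48 h all 5 tested members lay higher with ethephon, none of them past the threshold. The differences were 0.54 ± 0.34 for hk2 (95% interval -0.20 to 1.29), 0.26 ± 0.26 for HK1 (-0.31 to 0.82), 0.22 ± 0.15 for RR10 (-0.12 to 0.55), 0.21 ± 0.18 for RR8 (-0.18 to 0.61) and 0.14 ± 0.25 for RR9 (-0.40 to 0.68), each with an adjusted p = 0.994. Their median was 0.22, beside 0.02 over all kept probe sets, of which 52.8% lay higher. In each of the 5 the ethephon and water arrays overlapped, where separation was seen for 5.14% of kept probe sets in the higher and 3.9% in the lower direction, and ckx1 lay at -0.09 ± 0.33 without the filter. Limma called 0 members and 0% of probe sets, with 0 and 343 at an unadjusted p under 0.05. The 3'/5' index was higher on every ethephon array than on every water array of 48 h. Adjusted for that index HK1 lay at -0.07 and RR8 at -0.02, hk2 at 0.15, RR9 at 0.07 and RR10 at 0.20. At 48 h the groups did not share index values, so ethephon and array quality cannot be told apart. The part of RNA quality in these differences was not tested beyond these values.

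**Figure D2:**
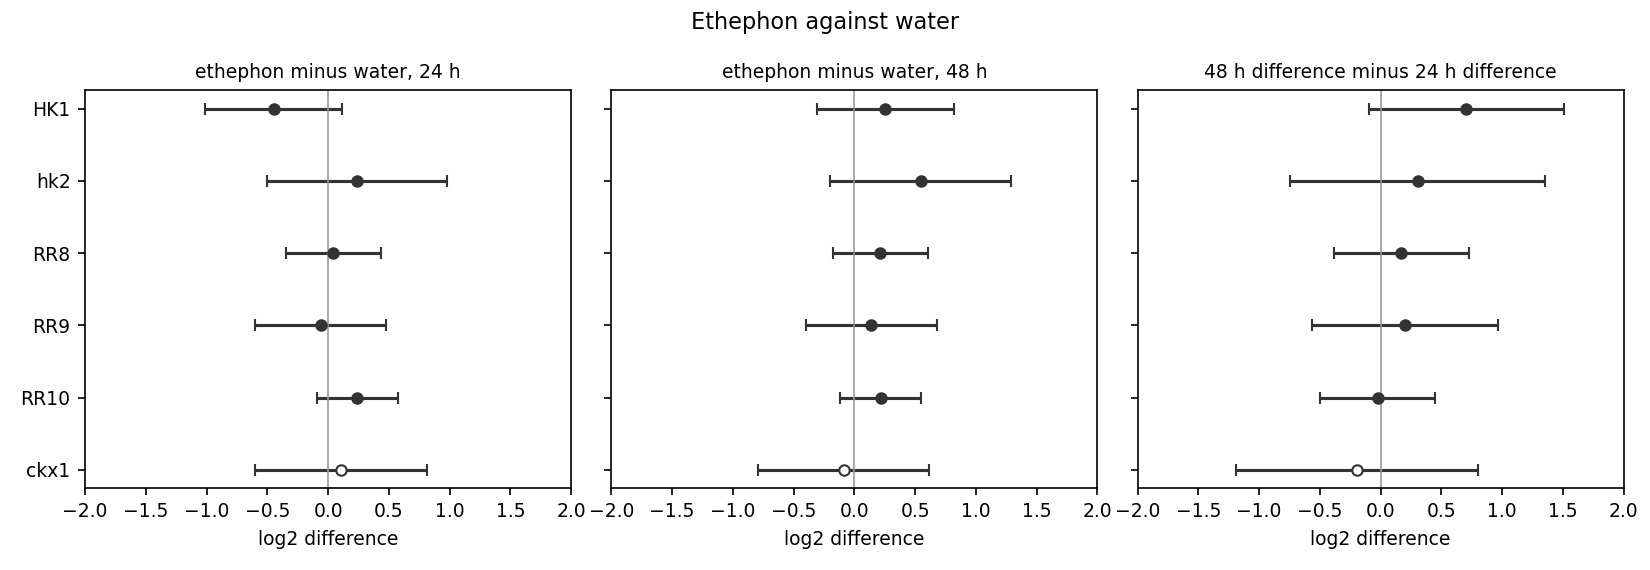
Log2 differences (horizontal axis) between ethephon and water at 24 h, at 48 h, and the 48 h difference minus the 24 h difference, with limma 95% intervals; the open symbol of ckx1 comes from the fit without a filter. Every interval includes 0, and those of RR8 and RR10 are the shortest.

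HK1 was the member whose ethephon difference moved most between the times. The difference at 48 h minus that at 24 h was 0.70 ± 0.37 (a 95% interval of 0.936 to 2.84 as a fold, unadjusted p = 0.0794, adjusted p = 0.9999), and 0.43 after adjustment for the index. For hk2, RR9, RR8 and RR10 it was 0.31 ± 0.48, 0.20 ± 0.35, 0.17 ± 0.26 and -0.02 ± 0.22. Limma called 0 of the 5 and 0% of all kept probe sets, and 0 members and 98 probe sets had an unadjusted p under 0.05. The water arrays enter this contrast at both times, and HK1 lay lower with water at 48 h than at 24 h (-0.70 ± 0.26, unadjusted p = 0.0199, adjusted p = 0.9995), with all arrays separated.

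In that comparison of the water groups hk2 was separated as well (-0.67 ± 0.34), and the 3 regulators lay at -0.33 ± 0.25 (RR9), -0.23 ± 0.18 (RR8) and -0.17 ± 0.15 (RR10) with overlapping arrays. All 5 tested members thus lay lower at 48 h, with a median of -0.33 beside -0.01 over all kept probe sets, of which 48.3% lay higher. The same water arrays of 48 h enter the comparison of ethephon with water at 48 h. The shared direction of the 5 members there and here is therefore not independent. Separation was seen for 5.21% of the kept probe sets in the lower and 4.97% in the higher direction, and 0 members and 0% of probe sets were called, with 1 member (HK1) and 344 probe sets at an unadjusted p under 0.05. The 3'/5' index was lower too, 1.66 to 2.35 at 48 h beside 2.52 to 3.07 at 24 h. Adjusted for it HK1 lay at -0.29, hk2 at -0.19, RR9 at -0.24, RR8 at 0.06 and RR10 at -0.16.

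The other cytokinin genes of the list give the context of the pathway. Of 11 such genes with a probe set, 7 were kept: the histidine kinase gene HK3, the phosphotransfer genes HP1, HP2 and HP3, and the type-A regulators RR5, RR6 and RR7. At 24 h 5 of the 7 lay lower and 2 higher with ethephon, and 0 passed the test. The type-A genes had the largest differences, -2.02 ± 0.53 for RR6, -1.26 ± 0.28 for RR7 and -1.04 ± 0.36 for RR5 (adjusted p = 0.523, 0.422 and 0.545). All 3 were separated in their arrays, as in 10.8% of kept probe sets. Their untreated means were 888 (RR6), 203 (RR7) and 264 (RR5). At 24 h the means in that order were 1047, 345 and 649 with water and 268, 147 and 351 with ethephon. RR5 thus lay above its untreated mean with either spray, and RR6 and RR7 with water alone. Their ethephon arrays of 24 h lay partly or wholly under the filter level of 218.3, at 108 to 172 for RR7, 190 to 398 for RR6 and 164 to 525 for RR5. RR7 reached that level on 10 of 15 arrays and was kept through its higher groups, so the size of its difference is uncertain. The 3 type-B genes at 24 h lay between -0.06 and 0.24, the 3 phosphotransfer genes between -0.15 and 0.28 (HP2, at 0.28 ± 0.25), and HK3 at -0.28 ± 0.33. At 48 h 4 of the 7 lay higher and 3 lower, with RR6 at 0.23 ± 0.53, RR5 at 0.15 ± 0.36, RR7 at -0.46 ± 0.28 and HP2 at 0.03 ± 0.25, and again 0 passed. RR7 alone of the 7 was separated at 48 h, with all ethephon arrays lower, as in 3.9% of kept probe sets. The difference between type-A and type-B genes was not tested.

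**Figure D3:**
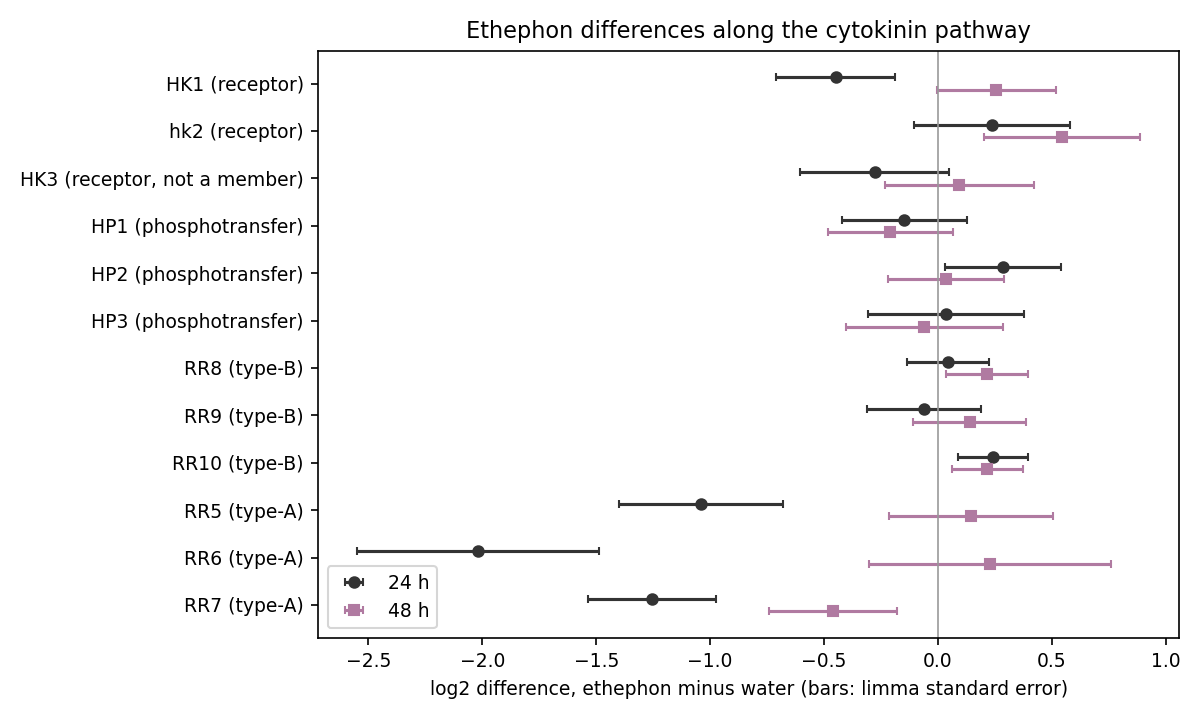
Log2 difference between ethephon and water (horizontal axis) at 24 h (circles) and 48 h (squares) for the 12 kept cytokinin genes in the order of the signalling chain, with limma standard errors as bars. At 24 h the 3 type-A genes lay between -2.02 and -1.04, and every other gene lay between -0.45 and 0.28.

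From 0 h to 24 h after water HK1 and RR9 had the largest differences among the members. HK1 was 1.97-fold higher (log2 0.98 ± 0.26, 95% interval 0.42 to 1.55, adjusted p = 0.081) and RR9 1.80-fold (0.85 ± 0.25, 0.31 to 1.39, adjusted p = 0.104). In both, all 3 water arrays lay above all 3 untreated arrays, as they did for 12.6% of kept probe sets (11% lay wholly below). The remaining differences were 0.53 ± 0.34 for hk2, 0.02 ± 0.15 for RR10 and 0.01 ± 0.18 for RR8, and ckx1 lay at 0.15 ± 0.33 without the filter. RR10 and RR8 lay at -0.10 and -0.11 with median centring, which moved the median over all kept probe sets from 0.05 to -0.08. The median of the 5 was 0.53, beside 0.05 over all kept probe sets. Of the members 0 were called, where 1.72% of all kept probe sets were, and 2 members and 2000 probe sets had an unadjusted p under 0.05. HK1 passed with array weights (0.92, adjusted p = 0.0483), while its adjusted p ran from 0.0483 to 0.878 over the settings that left out no array.

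Ethephon arrays were also set against the untreated ones, which they share with the water comparisons. At 24 h RR9 lay 1.73-fold higher (0.79 ± 0.25, 95% interval 0.25 to 1.33, adjusted p = 0.0796), with every ethephon array above every untreated one, as in 14.2% of kept probe sets (13.6% lay wholly below). RR10 was separated the same way (0.26 ± 0.15, adjusted p = 0.339). hk2 lay at 0.77 ± 0.34 (adjusted p = 0.192), HK1 at 0.53 ± 0.26 (adjusted p = 0.24) and RR8 at 0.05 ± 0.18, or -0.06 with median centring. Of the members 0 were called against 5.54% of all kept probe sets, 2 members (RR9 and hk2) and 2521 probe sets had an unadjusted p under 0.05, and RR9 passed with array weights (0.73, adjusted p = 0.0307). The adjusted p of RR9 ran from 0.0307 to 0.576 over the settings that left out no array.

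At 48 h RR9 was the member farthest from 0 h with either spray. It lay at 0.66 ± 0.25 with ethephon (95% interval 0.12 to 1.20, adjusted p = 0.208), with all arrays separated, as in 10.2% of kept probe sets (8.85% lay wholly below), and at 0.52 ± 0.25 with water (-0.02 to 1.06, adjusted p = 0.515). HK1 lay at 0.54 ± 0.26 with ethephon and 0.29 ± 0.26 with water, and hk2 at 0.41 ± 0.34 and -0.13 ± 0.34. For RR8 the values were -0.01 ± 0.18 and -0.22 ± 0.18, and for RR10 0.06 ± 0.15, or -0.07 with median centring, and -0.16 ± 0.15. With water none of the 5 was separated from 0 h, beside 7.05% of kept probe sets in the higher and 6.62% in the lower direction. Limma called 0 members in either comparison, beside 1.36% of kept probe sets with ethephon and 0.794% with water, and an unadjusted p under 0.05 was found for 1 member (RR9) and 1757 probe sets with ethephon and for 0 members and 1048 probe sets with water.

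**Figure D4:**
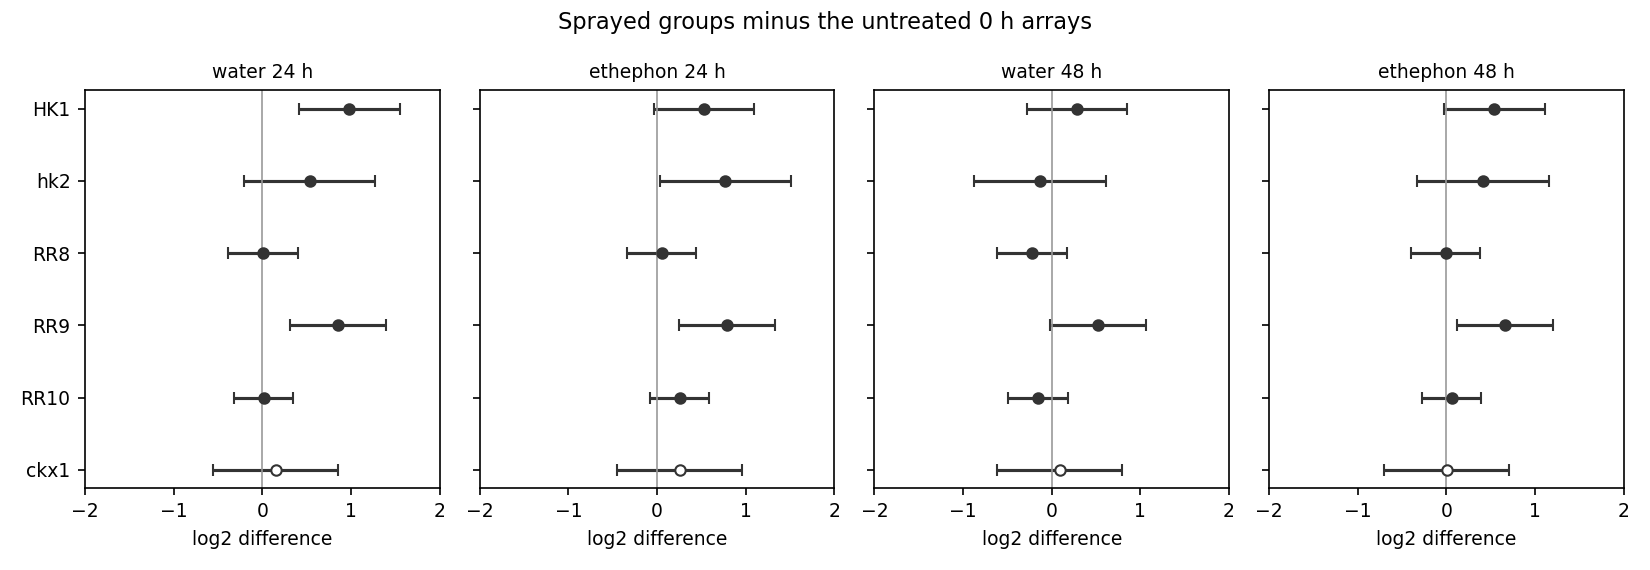
Log2 difference (horizontal axis) of each sprayed group from the untreated 0 h arrays, with limma 95% intervals; the open symbol of ckx1 comes from the fit without a filter, and the 4 panels share the untreated arrays. RR9 lay between 0.52 and 0.85 in all 4 panels, HK1 between 0.29 and 0.98, and RR8 and RR10 within 0.26 of 0.

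The 3'/5' index was higher on every sprayed array than on every untreated one, except in the water group of 48 h, which overlapped with 0 h. The second untreated array, with the lowest index of 0.783, gave the lowest value of all 15 arrays for HK1, hk2, RR8 and RR9, as it did for 24.5% of kept probe sets. It also had the highest summed signal of the green-tissue markers, 14890. Without it the difference from 0 h to 24 h of water was 0.77 for HK1, 0.76 for RR9, 0.24 for hk2 and -0.15 for RR8. Adjusted for the 3'/5' index the same difference was 0.38 for HK1, 0.72 for RR9 and -0.18 for hk2, with adjusted p-values of 0.878, 0.823 and 0.966. With ethephon at 24 h HK1 then lay at -0.12, hk2 at -0.01 and RR9 at 0.65. The part of RNA quality and of green tissue in these differences was not tested beyond these values, and time of collection and array quality cannot be told apart where the groups do not share index values.

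**Figure D5:**
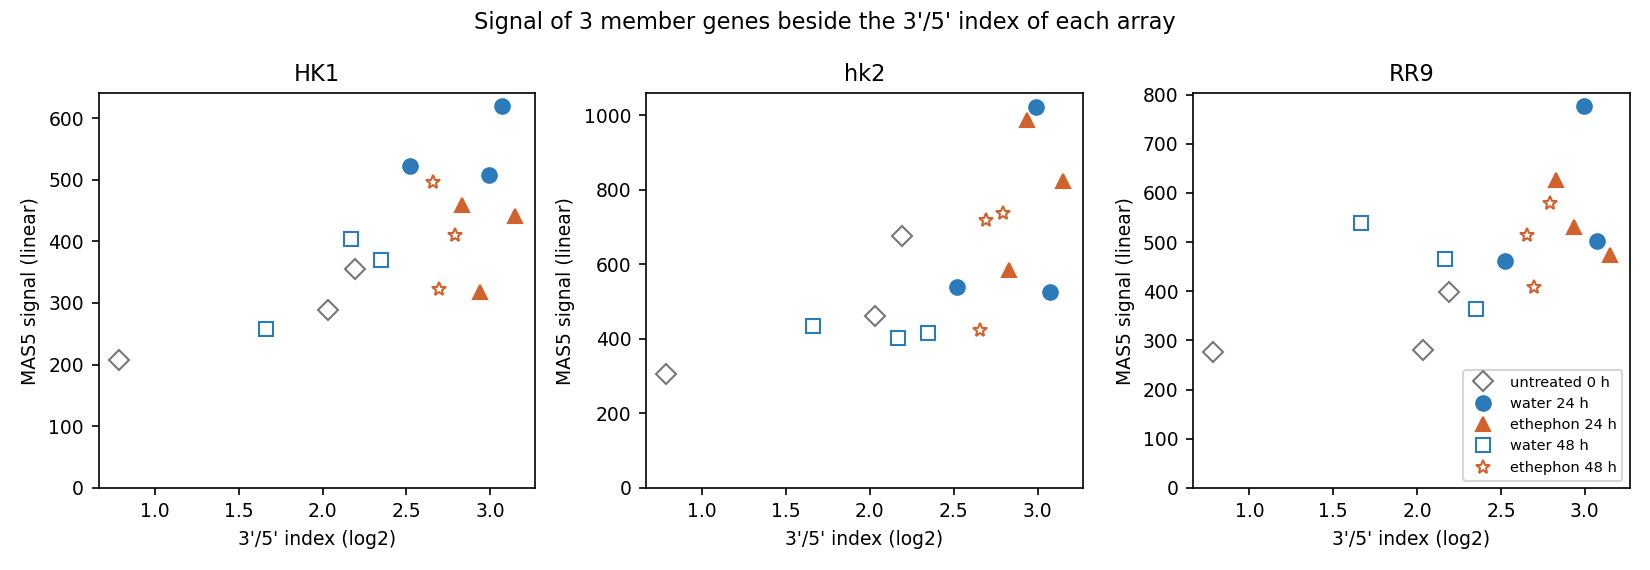
Signal of HK1, hk2 and RR9 (vertical axis, linear MAS5) against the 3'/5' index of the array (horizontal axis, log2), 1 symbol per array and group. HK1 was lowest, 208, on the array with an index of 0.783 and highest, 619, on an array with an index of 3.07. On the array of 0.783 hk2 and RR9 were lowest as well, at 306 and 276. Both were highest on a water array with an index of 2.99, at 1023 and 777. RR9 read 540 on the water array with an index of 1.66.

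Among named genes those with the most similar pattern were found by the root mean square difference from each member over the 15 arrays, in log2 signal after each gene's own mean was taken away, out of 762 named and kept genes. HK1 was closest to the nitrilase gene NIT1 (0.23, where the median over named genes was 0.55) and to gor1 (0.27). The nearest to hk2 were LOC541826 and pfk1 (both 0.26, median 0.62), and the nearest to RR9 were LOC541824 and DIP1 (both 0.23, median 0.54). RR8 lay close to gte102, a bromodomain gene, and to mbd106, a methyl-CpG-binding domain gene (both 0.10, median 0.39). RR10 was closest to a mitogen-activated protein kinase gene with the synonym MPK5 (0.14) and to LOC541696 (0.16, median 0.40), which ranked 5 and 12 with quantile normalization, and ckx1 to pdi11 (0.21) and LOC542727 (0.25, median 0.51). Genes that vary little lie close to many others by this measure, so the small values of RR8 and RR10 describe flat patterns.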

How the data were processed

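The authors deposited linear intensity values, MAS5 signals per probe set of 15 Affymetrix maize arrays, per the submitters' processing notes; the MAS5 version, scaling target and detection calls are not given in the sources used here. Per the labels' protocols RNA was extracted with Trizol and 200 ng were labelled with biotin by a 3' IVT kit. The number of arrays limits the precision. Replicates are separate pools of 3 seedlings within each group.

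Signals were taken to log2 with no offset, because array medians lay between 298.8 and 369.5. Of 17734 probe sets 113 were controls, and 10573 of the others reached the filter. Each probe set was given 5 group means by limma (version 3.58.1, R 4.3.3; empirical Bayes with a trend, 10 residual and 2.62 prior degrees of freedom), with Benjamini-Hochberg adjustment over all kept probe sets and a threshold of 0.05. The fits were tested on simulated data. Python 3.11.15, pandas 2.3.3 and matplotlib 3.10.9 made tables and figures.

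Gene names came from the platform annotation and RefSeq synonyms: 1452 probe sets had 1 gene, 1 had several and 16168 had none, and 1060 of 1108 genes matched RefSeq. Probe sequences and cross-hybridization with related gene copies were not analysed here. All members were named. Of the other cytokinin genes the rule named the 4 with the lowest p in an ethephon comparison (RR5, RR6, RR7 and HP2); others are given by count or range, and HK3 and the dim genes were named after their values were seen. Members, lists and tests were chosen with earlier results of these data known. Both comparisons of ethephon with 0 h were added later, once results were known. Alternatives were the filter, an offset of 32, quantile normalization, median centring, array weights, a replicate block, the compared groups alone, the index as a covariate, and leaving out each array.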

Additional observations from a re-analysis of the deposited data

How the results depend on the processing

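Of 320 member differences in settings that left out no array, 294 kept direction and side of the threshold, 24 changed sign and 2 gained a call. Of 270 with 1 array left out, 248 kept both, 22 changed sign and 0 gained a call. The stricter filter at the 60th percentile kept none of the members and so gave no member value. With array weights 1 member was called at 24 h against 0 h with water (HK1, 0.92) and 1 with ethephon (RR9, 0.73), and RR7 at 24 h of ethephon against water (-1.15, adjusted p = 0.0424, in a range from 0.0424 to 0.628 without leaving out an array). The ethephon arrays of RR7 at 24 h all lay under the filter level. The causes of these changes were not tested.

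The main fit did not pair arrays by replicate number. In deviations from group means 10 of 30 same-numbered pairs correlated above 0.1, in a range from -0.543 to 0.633. Of 15 arrays 4 correlated best with an array of their own number. Differently numbered pairs were not summarized beside these, so the counts do not settle whether the numbers pair the arrays. With the replicate number as a block the probe sets called were 96 in place of 182 for water at 24 h against 0 h, 359 in place of 586 for ethephon at 24 h and 73 in place of 144 for ethephon at 48 h against 0 h, and no member was called.

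Array weights gave 169 calls in place of 0 for ethephon against water at 24 h, 326 for water at 24 h against 0 h, 189 in place of 84 for water at 48 h against 0 h, and 1727 for ethephon at 24 h against 0 h, where the fit without a filter gave 937. Adjustment for the 3'/5' index left 13 for water at 24 h, 0 for ethephon at 24 h and 14 for ethephon at 48 h, each against 0 h. Fitting the compared groups alone left 11 and 6 for water at 24 and 48 h and 95 and 10 for ethephon at 24 and 48 h. With 1 array left out the counts ran from 0 to 2 (ethephon against water at 24 h), 0 to 1 (48 h), 0 to 1 (difference of these), 0 to 2 (water at 48 against 24 h), 68 to 176 and 49 to 68 (water at 24 and 48 h against 0 h), and 113 to 647 and 46 to 147 (ethephon at 24 and 48 h against 0 h).

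Sign changes concerned small differences and the index. Adjusted for the index, HK1 (-0.0726), RR8 (-0.0237), RR5 (-0.0426), RR6 (-0.0203) and HP2 (-0.34) lay below 0 for ethephon against water at 48 h, as did HP2 with median centring (-0.0161) and array weights (-0.027). For the 48 h difference minus the 24 h one, hk2 turned to -0.11 with array weights and -0.019 with the index, and RR8 to -0.0318 and -0.0277. For water at 24 h against 0 h, hk2 turned to -0.18 with the index. RR8 turned to -0.10 (quantile normalization), -0.11 (median centring), -0.0945 (array weights) and -0.43 (index), and RR10 to -0.0707 (quantile), -0.10 (centring) and -0.0078 (index). For ethephon at 24 h against 0 h the index gave HK1 -0.12, hk2 -0.0072 and RR8 -0.42, and RR8 lay at -0.0325 with quantile normalization and -0.0558 with centring. For ethephon at 48 h against 0 h hk2 lay at -0.21 with the index, and RR10 at -0.0452 (quantile), -0.0659 (centring) and -0.0043 (array weights). RR8 between the water groups turned to 0.062 with the index. Centring moved the median of all probe sets from 0.02 to -0.08 for ethephon at 24 h and from 0.06 to -0.07 for ethephon at 48 h against 0 h.

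Leaving out 1 array at a time changed the sign of small differences. For ethephon against water at 24 h RR8 ran from -0.0555 to 0.14 and RR9 from -0.21 to 0.17, and at 48 h RR9 from -0.0143 to 0.28, RR5 from -0.0656 to 0.31, RR6 from -0.0129 to 0.41 and HP2 from -0.0779 to 0.13. For the difference of the 2 times hk2 ran from -0.0079 to 0.57, RR9 from -0.0297 to 0.35 and RR10 from -0.17 to 0.0602. Against 0 h, RR8 ran from -0.15 to 0.18 and RR10 from -0.0557 to 0.0583 with water at 24 h, hk2 from -0.42 to 0.15 with water at 48 h, RR8 from -0.11 to 0.22 with ethephon at 24 h, and RR8 from -0.17 to 0.16 and RR10 from -0.082 to 0.14 with ethephon at 48 h. The dimness of ckx1, the unknown scaling target and 3 arrays a group limit what these values can show.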

Other observations

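Cytokinin genes of the list that lay below the filter read low in all 5 groups. The type-A regulator gene RR4 averaged 132 over the 15 arrays (57.9 to 218), RR11 116 (77.4 to 159) and cisZOG1, a gene of cytokinin glucosylation, 80.6 (58.8 to 124). RR3, the abphyl1 gene that affects leaf arrangement, averaged 26.0 (19.6 to 33.8). In the fit without a filter, ethephon minus water at 24 h was -0.91 ± 0.29 for RR4 and -0.23 ± 0.20 for RR3. It was -0.07 ± 0.23 for RR11 and 0.32 ± 0.30 for cisZOG1. The ethephon arrays of RR4 all lay below its water arrays, as in 10.8% of kept probe sets, and the arrays of the others overlapped.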
